A study of Mus musculus with 2 samples.

Results

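Semaphorins, ephrins, Slits and netrins are the ligands of the axon guidance families, and plexins, neuropilins, Eph receptors, Robo and Unc5 proteins are their receptors. The genes described here are all those whose symbol carries one of the family names Sema, Plxn, Nrp, Slit, Robo, Epha, Ephb, Efna, Efnb, Ntn or Unc5 followed by a digit or a letter-digit code, which gave 70 of the 32285 genes measured. They comprise 20 semaphorins, 9 plexins, 2 neuropilins, 3 Slits, 4 Robo receptors, 6 netrins, 4 Unc5 receptors, 5 ephrin-A ligands, 9 EphA receptors, 3 ephrin-B ligands and 5 EphB receptors. The choice used gene names and no measured value, and 11 genes with names that only resemble these (such as the Slitrk family and the antisense transcripts of Plxna4) were left out.

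The cells came from the aorta of ApoE-/- mice, which lack apolipoprotein E and are prone to atherosclerosis, at the age of 20 weeks. The study's 2 samples, 1 labelled HFD and 1 labelled MSC_ITGB3, share that genotype, tissue and age, and the series text describes HFD-fed models that received MSC_ITGB3 or did not. How many animals each sample holds is not given in the labels, nor is MSC_ITGB3 spelled out there. Single cells were barcoded in droplets, and each captured transcript was counted once by its unique molecular identifier (UMI) from its 3' end.

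The counts form 2 libraries, told apart by the suffix of the barcode and called library 1 and library 2. Nothing in the sources used here ties a suffix to a sample, so neither library is assigned to HFD or MSC_ITGB3. Paired values are for library 1 and then library 2. There is 1 library per sample and no replicate, so no p-value was computed. Intervals in brackets are exact 95% Poisson intervals that cover counting error only.

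In guidance signalling a ligand on one cell, secreted or held in its membrane, steers the movement and adhesion of another cell that carries the receptor. Class 3 semaphorins are secreted and act through neuropilin and plexin pairs, membrane-bound ephrins and Eph receptors signal in both directions at cell contacts, Slits bind Robo receptors, and netrins bind Unc5, Dcc and Neo1. In blood vessels the same families are known for separating arteries from veins, for guiding sprouts and for holding mural cells to the endothelium.

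Levels are given as CPM, a gene's UMIs per 1000000 UMIs of all genes, both summed over the barcodes of 1 cell class in 1 library. A 3' count is not divided by transcript length, so levels of different genes are not compared with each other. The libraries held 110257209 and 124266676 UMIs in all. Barcodes with 3000 or more UMIs and at most 20% mitochondrial UMIs were used, 6332 and 6540 of them with medians of 8746 and 6031 UMIs. They were sorted into classes by marker genes. The 7 classes with 50 or more barcodes in each library were endothelial-like (1054 and 393 barcodes), smooth muscle-like (885 and 1153), a second mural class marked by Rgs5 (511 and 540), fibroblast-like (1260 and 983), chondrocyte-like (60 and 418), macrophage-like (422 and 447) and T cell-like (162 and 124). The word "like", which means resemblance in markers only, is left out below, and a gene called highest in a class is so among these 7 unless a smaller class is named. Among these 7 classes, all 9 endothelial, 9 fibroblast, 9 chondrocyte, 8 macrophage and 8 T cell markers were highest in their own class in both libraries, as were 8 of 9 smooth muscle markers (not Des). The same genes set the gates, so this order follows in part from the sorting and is no separate check of identity. Barcodes from the pericyte gate are called Rgs5 mural because 5 of 8 pericyte markers were highest there in both libraries, Higd1b (33.4 and 10.98 CPM) and Vtn (18.1 and 11.7 CPM) among them, but not Kcnj8, Ndufa4l2 and Cspg4. The same barcodes held the smooth muscle gene Acta2 at 12950 and 16140 CPM, beside 20770 and 23560 CPM in smooth muscle. Chondrocyte barcodes also held fibroblast markers, at a summed 11880 and 9092 CPM against 24140 and 25800 CPM in fibroblasts. Barcodes that passed no gate made up 16.9% and 31.6%, and 17 barcode sequences occurred in both libraries.

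A gene counted as detected in a class at 10 CPM or more in both libraries, which 43 of 70 members reached in at least 1 class. Fibroblasts held 34 detected members, endothelial barcodes 29, Rgs5 mural barcodes 27, smooth muscle 24, chondrocytes 20, macrophages 16 and T cells 11. Of the 10967 genes detected in at least 1 class, the same classes held 8405, 8622, 8250, 8031, 7759, 7740 and 7678, an order that also puts T cells lowest. Efna5, Nrp1, Ntn1, Plxnd1 and Slit3 were detected in all 7 classes. Free RNA in droplets without a cell gives every class a low level of abundant transcripts, and it was read from barcodes with 10 to 100 UMIs. Of the 161 pairs of a detected member and a class, 59 had an interval wholly above that of free RNA in both libraries: 18 in endothelial barcodes, 12 in fibroblasts, 9 in smooth muscle, 7 in Rgs5 mural barcodes, 6 in macrophages, 4 in chondrocytes and 3 in T cells. That comparison sets a class against free RNA alone. From the markers of other classes, free RNA was estimated at 5.79% to 17.3% of a class's UMIs, both ends in T cells. A level below free RNA, here or later, was therefore not shown to come from it.

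**Figure D1:**
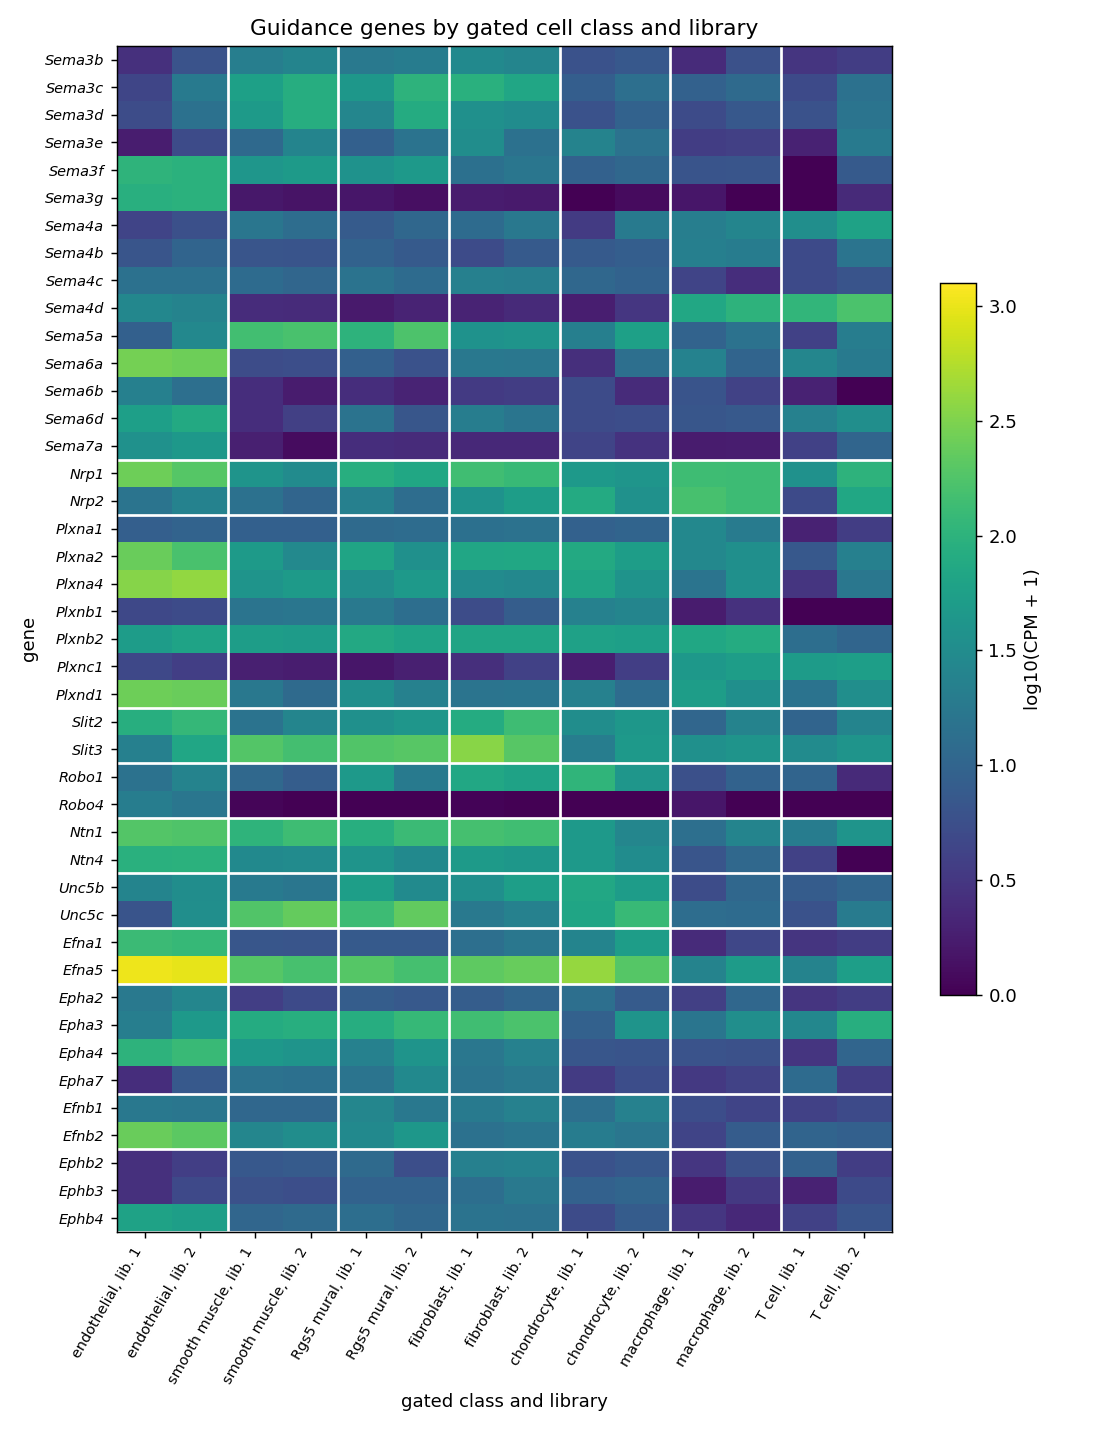
Heat map of the level of guidance genes (rows) in gated classes and both libraries (columns), with colour for log10 of CPM plus 1. The endothelial columns hold the highest values of 15 genes that stood 2-fold or more above every other main class, and the smooth muscle, Rgs5 mural and fibroblast columns share many of their genes.

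Enrichment meant a level at least 2-fold above each of the other 6 main classes in both libraries, at 10 CPM or more. It was met by 15 of the 43 detected members in endothelial barcodes and by 1, Ephb2, in fibroblasts. Over all 10967 genes tested, 3.76% met the rule in endothelial barcodes and 1.36% in fibroblasts. The endothelial members were the semaphorins Sema3f, Sema3g, Sema6a, Sema6b, Sema6d and Sema7a, the plexins Plxna2, Plxna4 and Plxnd1, the ephrins Efna1, Efna5 and Efnb2, the Eph receptors Epha4 and Ephb4, and Robo4. The median member did not lean that way: its level in endothelial barcodes, set against the highest other class over the 43 detected members, was -0.57 and -0.48 on the log2 scale with 1 CPM added, beside -0.63 and -0.57 over the 10967 genes. Since no test can be made, the counts are a description of these libraries.

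The semaphorins were the largest family among the endothelial genes, and also the largest among the 43 detected members. Of the 15 detected semaphorins 6 were endothelial, beside 15 of the 43 members of all families. Sema3g (ENSMUSG00000021904, chromosome 14, 31217860 to 31230352 of GRCm38) encodes a secreted class 3 semaphorin known from arterial endothelium. Its level was 90.1 CPM (85.2 to 95.1) and 93.7 CPM (83.9 to 104) in endothelial barcodes, and in fibroblasts it was 0.729 CPM (0.364 to 1.30) and 0.682 CPM (0.274 to 1.41). Counted as cells after each barcode had been thinned to 3000 UMIs, 18.8% and 14.8% of endothelial barcodes held a Sema3g UMI, compared with 0.339% and 0.173% of smooth muscle barcodes. Before thinning these shares were 37% and 24.2% in endothelial and 0.678% and 0.434% in smooth muscle barcodes, at median depths of 9610.5 and 4997 UMIs and of 10694 and 9064 UMIs. At this depth a barcode without a UMI can still express the gene, so the shares set endothelial beside muscle barcodes and do not count expressing cells.

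Sema6a, a membrane-bound semaphorin that binds Plxna2 and Plxna4, stood at 283 CPM (275 to 292) and 262 CPM (245 to 279) in endothelial barcodes and at 4.32 and 4.59 CPM in smooth muscle. It was 11.2-fold and 15.2-fold above T cells, the next class, and 14 of the 25 T cell UMIs of library 1 came from 1 barcode. Both of those A-type plexins were themselves endothelial. Plxna4, a receptor for class 3 and class 6 semaphorins, had 340.3 CPM (331 to 350) and 390.4 CPM (370.3 to 411), 5.28-fold and 8.20-fold above the next class. Plxna2, a related receptor, had 248 CPM (239.7 to 256) and 163 CPM (149.9 to 177) and was 3.30-fold and 2.37-fold above the next class. Plxnd1, the vascular plexin that binds Sema3e, had 260.1 CPM (252 to 269) and 244 CPM (228 to 261), with macrophages next at 52.8 and 34.1 CPM.

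The other endothelial semaphorins were Sema3f, Sema6b, Sema6d and Sema7a. Sema3f, a secreted ligand of Nrp2, measured 103 CPM (98.2 to 109) and 95.6 CPM (85.8 to 106), against 41.1 and 47.3 CPM in smooth muscle. Sema6d, a membrane-bound ligand of Plxna1, measured 55.8 CPM (51.97 to 59.8) and 75.03 CPM (66.3 to 84.5), 2.52-fold and 2.27-fold above the next class. Sema7a, which is tied to the membrane by a lipid anchor, measured 35.97 CPM (32.9 to 39.2) and 43.6 CPM (37.1 to 51.01). These genes differ in how firmly they hold the 2-fold margin: Sema7a kept it under all 10 alternative settings tried, Sema6d under 8 and Sema3f under 7. Sema6b, another class 6 semaphorin, was near the detection limit at 21.5 and 12.5 CPM.

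**Figure D2:**
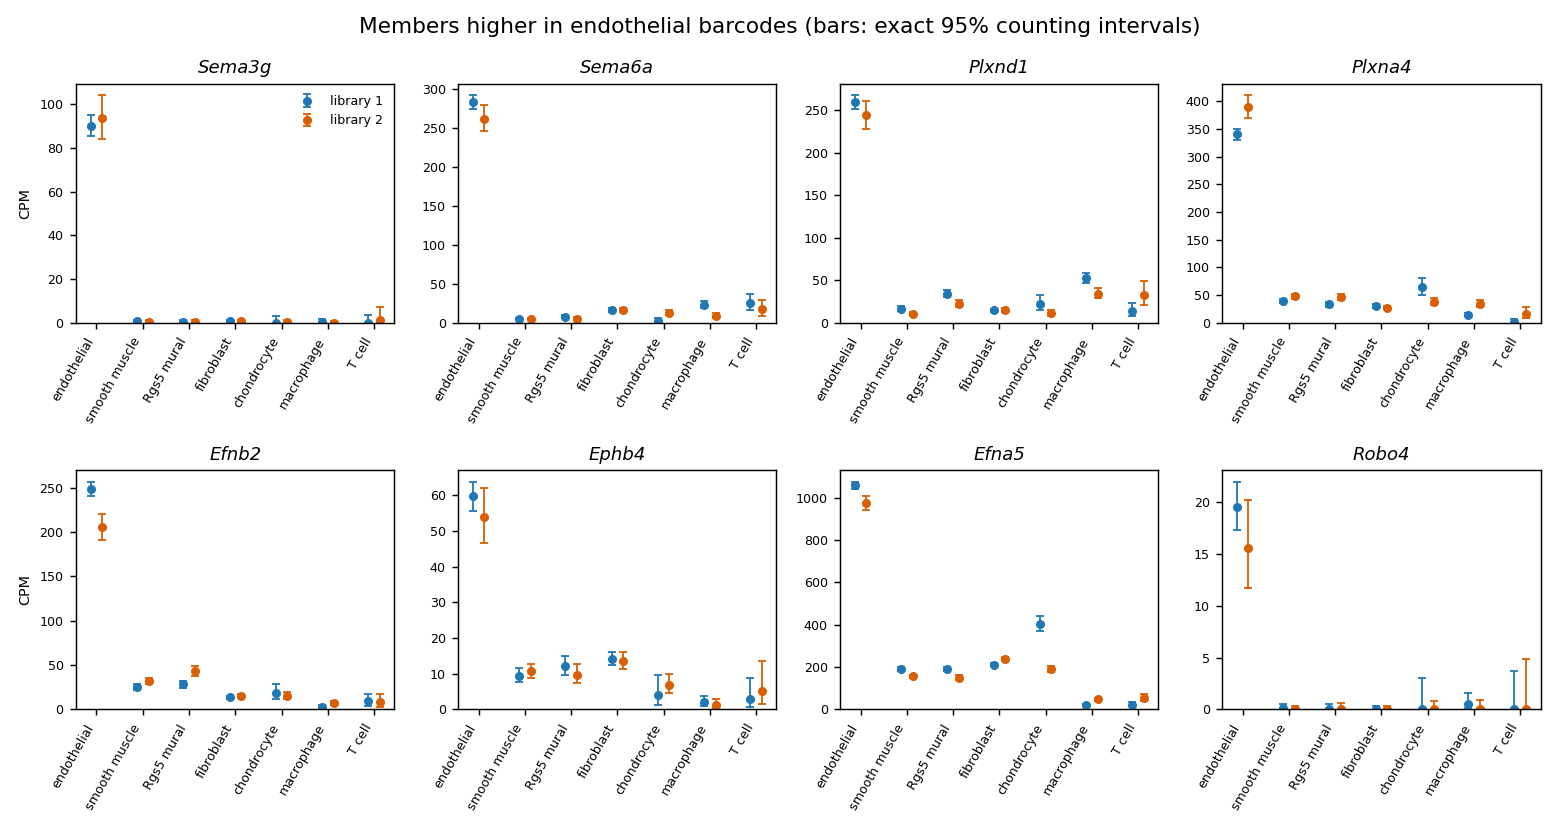
Level in CPM of 8 endothelial guidance genes (panels) in the 7 main classes, for library 1 and library 2; points are summed levels and bars are exact 95% counting intervals. Sema3g and Robo4 lie near 0 outside endothelial barcodes, while Efna5 is also high in chondrocytes of library 1 (404 CPM).

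Ephrins and Eph receptors were both represented in the endothelium. Efnb2 (ENSMUSG00000001300, chromosome 8, 8617434 to 8661242), the ephrin that marks arterial endothelium, measured 248 CPM (240.3 to 257) and 205 CPM (190.5 to 220.4). It was 8.78-fold and 4.76-fold above the next class, the Rgs5 mural barcodes. Its receptor Ephb4, which marks veins, measured 59.6 CPM (55.7 to 63.8) and 53.9 CPM (46.6 to 62.05) and was 4.20-fold and 3.98-fold above fibroblasts. Both partners of the artery and vein pair were therefore found in the same endothelial class.

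Efna5, a lipid-anchored ligand of EphA receptors, measured 1058 CPM (1041 to 1075) and 974 CPM (942 to 1007) in endothelial barcodes. After thinning, 82.1% and 73.8% of endothelial barcodes held an Efna5 UMI, against 35.2% and 31.8% of smooth muscle barcodes. Unthinned shares were 91.5% and 83.5% in endothelial and 63.95% and 57.1% in smooth muscle barcodes. Efna5 was thus spread over most endothelial barcodes and was found in a smaller share of muscle barcodes. Efna1, an EphA ligand that is induced by cytokines in endothelium, measured 129 CPM (123 to 135) and 117 CPM (106 to 128), with chondrocytes next at 23.96 and 52.7 CPM. Among the EphA receptors, Epha4 measured 100.1 CPM (94.96 to 105) and 126 CPM (114 to 138) in endothelial barcodes and 43.9 and 39.2 CPM in smooth muscle. Epha2, which binds Efna1, was highest in endothelial barcodes among the main classes, at 17.01 and 25.3 CPM, but did not reach the 2-fold margin. Efnb1, a membrane-spanning ephrin, was highest in Rgs5 mural barcodes of library 1 and in fibroblasts of library 2, at no more than 25.3 CPM.

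Robo4, the vascular Robo receptor, was nearly missing outside the endothelium. It measured 19.5 CPM (17.3 to 21.96) and 15.6 CPM (11.8 to 20.2) in endothelial barcodes, whereas no other main class exceeded 0.529 CPM. In library 2 the other 6 main classes held 0 Robo4 UMIs, which in smooth muscle allows a level of up to 0.265 CPM (3 counts). Its level was low, and 4.93% and 3.56% of endothelial barcodes held a UMI after thinning (16.2% and 8.65% before).

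Start-site windows of 4 of these genes are printed. Robo4 is the 1 endothelial member with a window and no GC box, a motif of many housekeeping promoters, and the others shown hold 1 (Sema3g), 2 (Plxnd1) and 3 (Efnb2). Each runs from 250 bases before to 50 bases after the annotated start in RefSeq (build GRCm38.p6), 5' to 3' on the gene's strand. Robo4 lies at chr9:37401722-37402021 (plus strand, 50.3% G and C), Sema3g at chr14:31217623-31217922 (plus strand, 58.7%), Plxnd1 at chr6:115994956-115995255 (minus strand, 67%) and Efnb2 at chr8:8661193-8661492 (minus strand, 72.3%). Capitals mark the GC box, GGGCGG on either strand.
Robo4: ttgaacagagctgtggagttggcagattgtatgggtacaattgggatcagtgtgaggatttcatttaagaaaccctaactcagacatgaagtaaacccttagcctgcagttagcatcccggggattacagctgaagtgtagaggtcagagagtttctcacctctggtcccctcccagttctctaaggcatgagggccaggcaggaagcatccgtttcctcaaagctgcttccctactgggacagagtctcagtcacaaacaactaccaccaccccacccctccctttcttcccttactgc
Sema3g: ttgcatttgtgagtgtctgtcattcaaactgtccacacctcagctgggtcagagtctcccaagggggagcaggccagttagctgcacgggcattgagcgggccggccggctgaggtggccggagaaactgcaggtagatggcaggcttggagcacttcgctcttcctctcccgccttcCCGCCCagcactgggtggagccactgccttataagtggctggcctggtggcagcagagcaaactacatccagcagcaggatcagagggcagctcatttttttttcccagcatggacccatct
Plxnd1: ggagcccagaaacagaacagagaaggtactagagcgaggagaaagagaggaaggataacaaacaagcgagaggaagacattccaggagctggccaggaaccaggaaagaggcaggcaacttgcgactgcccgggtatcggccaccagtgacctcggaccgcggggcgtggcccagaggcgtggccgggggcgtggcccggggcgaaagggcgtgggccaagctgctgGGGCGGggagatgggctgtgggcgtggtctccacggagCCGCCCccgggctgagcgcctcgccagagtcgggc
Efnb2: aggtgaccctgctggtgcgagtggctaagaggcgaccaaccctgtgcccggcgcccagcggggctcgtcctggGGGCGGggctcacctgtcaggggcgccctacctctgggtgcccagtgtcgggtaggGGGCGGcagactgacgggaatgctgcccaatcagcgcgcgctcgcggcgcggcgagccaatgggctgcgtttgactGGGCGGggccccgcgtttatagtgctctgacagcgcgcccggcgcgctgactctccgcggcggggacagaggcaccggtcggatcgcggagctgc

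Of the 70 members, 61 matched a RefSeq window, among them 12 of the 15 endothelial genes. The 61 had 77 windows, and a gene counted as a match if any of its windows held the motif. Counts of genes below are therefore not in the same unit as shares of windows, and a gene with more windows has more room for a match. The GC box was in 11 of these 12, in 45 of the 61 members and in 35.7% of the 32851 windows in the table. The ETS motif CGGAAG was in 1 of the 12 (Efna1), in 6 of 61 members and in 16.9% of windows, and the GATA motif AGATAA was in 0 of 12, in 3 of 61 and in 11.2%, both strands searched. The 3 motifs do not contain one another. A match describes the letters in the window and no more.

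Neuropilins, netrins and Slits were shared between the endothelium and other classes. Nrp1, the co-receptor for class 3 semaphorins and for the growth factor VEGF, was highest in endothelial barcodes at 259.6 CPM (251 to 268) and 193 CPM (178 to 208). It was also high in fibroblasts (139.6 and 123 CPM) and in macrophages (134 and 131 CPM). Nrp2, the co-receptor known from veins and lymphatics, was low in endothelial barcodes at 14.7 and 22.8 CPM. Its highest main class was the macrophages, at 158 CPM (148 to 169) and 134 CPM (123 to 146). The 2 neuropilins thus had different distributions: only Nrp1 was above free RNA (62.3 and 51.3 CPM) in endothelial barcodes, Nrp2 being below its own (31.4 and 31.1 CPM).

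Ntn1, the founding netrin, measured 185 and 175 CPM in endothelial barcodes, 151 and 142 CPM in fibroblasts and 101 and 138 CPM in smooth muscle. Ntn4, a netrin of basement membranes, measured 91.1 CPM (86.2 to 96.2) and 95.03 CPM (85.2 to 106) in endothelial barcodes and 47.6 and 42.6 CPM in fibroblasts. Slit2, a secreted Robo ligand, was at 87.8 and 116 CPM in endothelial barcodes and 80.03 and 136 CPM in fibroblasts. None of these ligands belonged to one class.

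Endothelial barcodes differed among themselves. They were split after the data had been seen by the arterial genes Gja5 and Bmx and by the venular gene Ackr1, none of which is a guidance gene. In library 1, 808 barcodes held Gja5 or Bmx without Ackr1 and 26 held Ackr1 without Gja5 or Bmx, with medians of 10035 and 10613 UMIs. Library 2 had 239 and 6 such barcodes. Left out of the split were 83 and 6 barcodes with both kinds of UMI and 137 and 142 with neither. Most library 1 barcodes with an Ackr1 UMI thus also held Gja5 or Bmx. Those 83, with a median of 19787 UMIs, held Nrp2 at 5.95 CPM and Efnb2 at 213 CPM. The groups come from cells of 1 library each, so the ratios describe those barcodes only.

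Nrp2 was the guidance gene most shifted toward the Ackr1 group. In library 1 it measured 248 CPM (201 to 304) there and 7.31 CPM (5.81 to 9.09) in the Gja5 or Bmx group, a ratio of 33.98 (24.97 to 46.3), with 18 of 26 barcodes holding a UMI. In library 2 the levels were 358 CPM (212 to 565) from 18 UMIs in 4 of 6 barcodes and 12.4 CPM. The low endothelial Nrp2 level is thus an average over barcodes that differ widely. Robo4 was also higher in the Ackr1 group of library 1, at 74.02 CPM (49.2 to 107) against 17.4 CPM (15.1 to 20.1), a ratio of 4.25 (2.75 to 6.33). In library 2 its 6 UMIs in that group came from 1 barcode. Ratios toward the Ackr1 group of library 1 were also above 1 for Efnb1 at 2.78 (1.52 to 4.73), Epha2 at 2.27 (1.21 to 3.90), Plxnb2 at 2.01 (1.38 to 2.83) and Sema6a at 1.60 (1.36 to 1.87). In library 2 Plxnb2 and Sema6a went the other way, Plxnb2 at 19.9 CPM from 1 UMI against 62.4 CPM and Sema6a at 278 against 311 CPM. The Ackr1 group there held 1 UMI of Efnb1 and 4 UMIs of Epha2 in 1 barcode.

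Several other members were higher in the Gja5 or Bmx group. Efnb2 measured 276 CPM (266 to 286) there and 31.7 CPM (16.4 to 55.4) in the Ackr1 group of library 1, an 8.69-fold difference. Ntn1 measured 193 CPM (185 to 201) and 10.6 CPM (2.88 to 27.1), the latter from 4 UMIs. Sema3g measured 101 CPM (95.5 to 108) and 0 UMIs, so it was at least 12.8-fold higher against a floor of 3 counts. Efna5 (5.66-fold), Epha4 (5.64-fold), Sema3f (3.93-fold) and Plxna4 (2.46-fold) leaned the same way in library 1. In library 2 the Gja5 or Bmx group held 244 CPM of Efnb2, 194 CPM of Ntn1 and 116 CPM of Sema3g, and the 6 Ackr1 barcodes held 99.3, 19.9 and 0 CPM. Efna5, Epha4 and Plxna4 were again lower in the Ackr1 group, from 1, 3 and 1 UMIs. Sema3f went the other way in library 2, at 119 CPM from 6 UMIs in the Ackr1 group and 105 CPM in the other.

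Ephb4, named above as the venous partner of Efnb2, did not separate the groups. Its library 1 levels were 58.2 CPM (36.5 to 88.05) in the Ackr1 group and 58.5 CPM (54.1 to 63.2) in the Gja5 or Bmx group, a ratio of 0.994 (0.619 to 1.52). The interval still allows a difference of either sign.

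**Figure D3:**
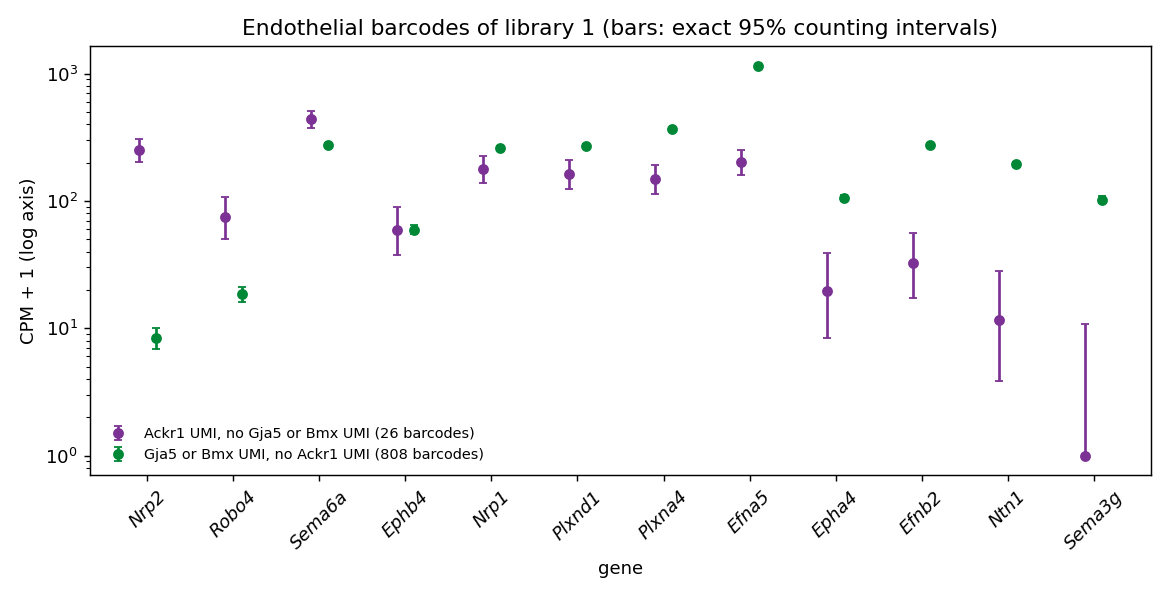
Levels of guidance genes in library 1 endothelial barcodes with Ackr1 and without Gja5 or Bmx (26 barcodes) and with Gja5 or Bmx and without Ackr1 (808 barcodes), as CPM plus 1 on a log axis with exact 95% counting intervals. Nrp2 and Robo4 are higher in the Ackr1 group, Efnb2, Ntn1 and Sema3g are higher in the other group, and the Ephb4 intervals overlap.

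The mural classes held a netrin receptor and secreted or membrane semaphorins, none of them enriched there under the 2-fold rule. Unc5c (ENSMUSG00000059921, chromosome 3, 141465216 to 141834924), a netrin receptor that mediates repulsion, was highest in smooth muscle in both libraries. It measured 179 CPM (171 to 188) and 229.8 CPM (221 to 239) in smooth muscle and 134 CPM (125 to 142) and 228 CPM (215 to 240.3) in Rgs5 mural barcodes. Chondrocytes held 66.1 and 123 CPM of Unc5c, with a UMI in 15% and 28.2% of barcodes after thinning. Fibroblasts held 16.8 and 22.2 CPM and free RNA 30.5 and 46.1 CPM. After thinning, 30.7% and 40.9% of smooth muscle barcodes held a UMI of this receptor, against 4.26% and 5.82% of macrophages, and unthinned shares were 55.03% and 62.7% in smooth muscle and 6.87% and 7.38% in macrophages. Macrophages had median depths of 8334 and 4916 UMIs.

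Sema5a, a membrane semaphorin with thrombospondin repeats, measured 146 CPM (138 to 153) and 162 CPM (154 to 169) in smooth muscle and 100.1 CPM (92.9 to 108) and 172 CPM (162 to 183) in Rgs5 mural barcodes. Fibroblasts were lower, at 37 and 39.6 CPM, as were chondrocytes at 20.7 and 57.3 CPM. Both mural classes carried these genes, and neither reached the 2-fold rule for any member. Over all genes 0.0456% reached it in smooth muscle and 0.0547% in Rgs5 mural barcodes. With smooth muscle and Rgs5 mural barcodes taken as 1 class, a choice made after seeing the data, Sema5a was the single member that met the rule, beside 2.58% of 10929 genes.

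Secreted class 3 semaphorins were found in muscle as well. Sema3d measured 47.7 CPM (43.5 to 52.1) and 84.4 CPM (79.1 to 89.9) in smooth muscle, the main class where it was highest in both libraries. Sema3c, known from the outflow tract of the developing heart, measured 57.2 and 85.4 CPM in smooth muscle, 42.4 and 99.9 CPM in Rgs5 mural barcodes and 92.8 and 67.01 CPM in fibroblasts. Its highest class changed between the libraries, from fibroblasts to Rgs5 mural barcodes. Epha7, an EphA receptor, was highest in Rgs5 mural barcodes in both libraries, at 14.8 and 28.2 CPM, close to fibroblasts at 14.6 and 16.9 CPM.

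Fibroblasts held the most detected members, 34 of 43, a share similar to the 8405 of 10967 genes detected there. Few members set them apart. Ephb2, a receptor for ephrin-B ligands, was the member that met the 2-fold rule there, at 21.7 CPM (19.4 to 24.2) and 22.98 CPM (20.1 to 26.1). Its margin was narrow, with Rgs5 mural barcodes at 10.8 CPM in library 1, and it was lost when the marker gate was raised to 3-fold and when free RNA was subtracted. Its relative Ephb3 was also highest there, at 12.2 and 16.8 CPM. Epha3, an EphA receptor of mesenchymal cells, measured 139.8 CPM (134 to 146) and 168 CPM (160.2 to 176), above smooth muscle at 80.04 and 86.8 CPM.

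Slit3 (ENSMUSG00000056427, chromosome 11, 35121224 to 35708507), a secreted Robo ligand, was detected in every main class. It measured 354 CPM (345 to 364) and 196 CPM (187 to 204) in fibroblasts, 184 CPM (176 to 192) and 149.6 CPM (142 to 157) in smooth muscle and 182 and 198 CPM in Rgs5 mural barcodes. Free RNA held 80.8 and 108 CPM of it, and endothelial barcodes, at 21.4 and 67.2 CPM, lay below that. Slit3 was thus a gene of all 3 stromal classes rather than of one. Robo1, a receptor for Slits, measured 70.4 and 59.6 CPM in fibroblasts, 106 and 41.4 CPM in chondrocytes and 10.2 and 7.32 CPM in smooth muscle, with free RNA at 69.8 and 29.2 CPM. Ligand and receptor therefore overlapped in fibroblasts, and Robo1 was low in the smooth muscle class that carried the ligand.

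Sema3b, a secreted semaphorin, was highest in fibroblasts among the main classes, at 28.8 and 24.7 CPM, as was the membrane-bound Sema4c at 21.4 and 20.4 CPM. Fibroblasts were also the class most open to the choice of gate, since 392 and 432 of their barcodes would be lost if the gate were raised by 25%.

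**Figure D4:**
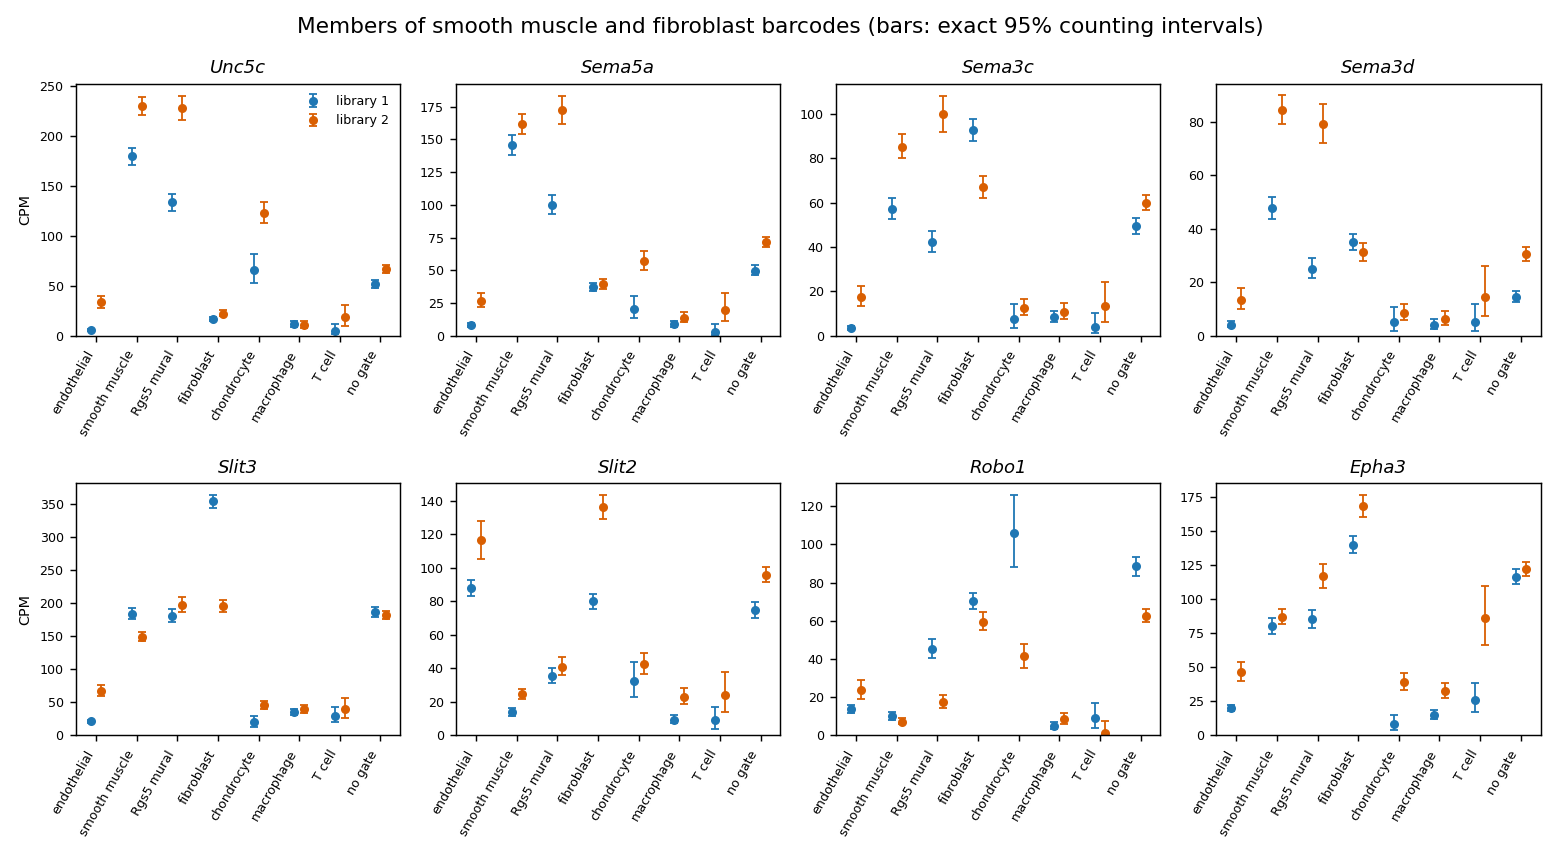
Level in CPM of 8 stromal guidance genes (panels) in the 7 main classes and in barcodes that passed no gate, for library 1 and library 2, with exact 95% counting intervals. Unc5c and Sema5a are high in smooth muscle and Rgs5 mural barcodes, and Slit3 is high in both and in fibroblasts.

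Chondrocytes carried receptors of the netrin and Slit families. Unc5b, a netrin receptor also known from arterial endothelium, measured 71.9 CPM (57.6 to 88.7) and 51.1 CPM (44.6 to 58.3). The level in fibroblasts was 33.8 and 52.98 CPM, and in library 2 its interval overlapped that of chondrocytes. Plxnb1, a receptor for Sema4d, was highest in chondrocytes among the main classes of each library. Its level there was 22.3 CPM (14.7 to 32.5) and 24.96 CPM (20.5 to 30.1). Free RNA held 9.27 and 16.9 CPM of it. The 60 chondrocyte barcodes of library 1 were deeper than the 418 of library 2, with medians of 14033.5 and 4441 UMIs. Unc5c was also present there, at 66.1 and 123 CPM, and 1 barcode gave 28 of its 80 UMIs in library 1.

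Leukocytes carried some class 4 semaphorins (Sema4a, Sema4b and Sema4d) and Plxnc1. Sema4d (ENSMUSG00000021451, chromosome 13, 51685529 to 51793747), known as CD100 on T cells, measured 108 CPM (88.3 to 130.2) and 164 CPM (137 to 196) in T cells and 70.4 CPM (63.7 to 77.7) and 99.01 CPM (89.4 to 109) in macrophages. It stood at 1.06 and 1.36 CPM in fibroblasts and 1.47 and 1.41 CPM in smooth muscle. The small neutrophil class (85 and 22 barcodes) held 427 CPM (362 to 499) and 536 CPM (399.5 to 705). After thinning, 55.3% and 59.1% of neutrophils and 24.7% and 33.1% of T cells held a Sema4d UMI, against 0.476% and 0.102% of fibroblasts. Unthinned shares were 58.8% and 63.6%, 41.4% and 50.8% and 1.19% and 1.42%, at median depths of 3802 and 3539.5, 5149 and 4823, and 9052 and 7312 UMIs.

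Sema4a, a semaphorin that costimulates T cells, measured 33.2 CPM (22.9 to 46.7) and 60.9 CPM (44.6 to 81.3) in T cells, 49.8 and 88.2 CPM in the 52 and 21 dendritic cell barcodes and 76.6 and 84.2 CPM in neutrophils. It was also detected in macrophages, smooth muscle and fibroblasts. Plxnc1, the receptor of Sema7a, measured 49.4 CPM (36.5 to 65.2) and 54.3 CPM (38.98 to 73.7) in T cells, 44.5 CPM (39.2 to 50.3) and 52.8 CPM (45.9 to 60.6) in macrophages and 134 CPM (107 to 165) and 251 CPM (197 to 315) in dendritic cells, but 3.64 and 2.78 CPM in endothelial barcodes. Among the main classes its ligand Sema7a was highest in endothelial barcodes and the receptor in leukocytes, while dendritic cells held both, with Sema7a at 34.2 CPM (21.4 to 51.8) and 71.3 CPM (44.1 to 109). Plxna1, a receptor of Sema6d, was highest in macrophages at 26.6 and 18.5 CPM, as was the membrane-bound Sema4b at 20.6 and 19.2 CPM. Plxnb2, a widely expressed plexin, stood between 49.5 and 80.5 CPM in 6 of the main classes and at 12.1 and 9.27 CPM in T cells.

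Several guidance genes stood higher in a small class than in any main class. Lymphatic endothelial barcodes numbered 20 and 10. Nrp2 measured 366 CPM (283 to 467) and 391 CPM (305 to 494) in them, and 1 barcode gave 48.6% of its UMIs in library 2. Sema3a, the ligand of Nrp1, measured 439 CPM (347 to 548) and 229 CPM (164 to 311), whereas no main class held more than 22.1 CPM. Sema3d measured 603 CPM (494 to 728) and 319 CPM (241 to 413) and Ntn1 417 CPM (327 to 523) and 397 CPM (310 to 501) there. In library 2, 1 barcode each gave 46.3% of the Sema3a UMIs, 45.6% of the Sema3d UMIs and 46.5% of the Ntn1 UMIs. Without it the levels were 174, 245.5 and 301 CPM. Sema6a was 552 and 665 CPM, but 82.4% of its UMIs in library 2 came from 1 barcode, and without it the level was 166 CPM, below that of endothelial barcodes. Ephb4 measured 107 CPM (64.5 to 167) and 162 CPM (109 to 233) there, with intervals above those of endothelial barcodes. Of its UMIs in library 2, 31% came from 1 barcode, without which the level was 138 CPM. Robo4 (45.1 CPM (19.5 to 88.8) and 27.9 CPM (9.08 to 65.2)) and Epha2 (39.4 CPM (15.9 to 81.2) and 33.5 CPM (12.3 to 73.01)) had intervals that overlapped the endothelial ones in both libraries.

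Schwann cells are the glia that ensheathe peripheral nerve. The 64 and 38 Schwann barcodes were highest in all 8 Schwann markers, the genes that set their gate. Sema3b measured 265 CPM (210.5 to 329.5) and 262 CPM (195 to 346) and Sema6d 186 CPM (141 to 242) and 242 CPM (177 to 322) in them. Ntng1, a netrin-G that is tethered to the membrane, measured 102 CPM (68.9 to 144) and 105 CPM (64.2 to 162) and was detected in no main class. Plxnb3, known from glia, measured 32.7 CPM (15.7 to 60.2) and 63.01 CPM (32.6 to 110.1) there against at most 1.03 CPM in a main class. Ephb6, an Eph receptor without kinase activity, measured 55.6 and 42.01 CPM. These genes stood higher in the nerve glia than in any main class. Ntng2, also a netrin-G, measured 79.3 CPM (53.1 to 114) and 63.1 CPM (23.2 to 137) in neutrophils and 24.9 CPM (14.2 to 40.4) and 37.3 CPM (18.6 to 66.8) in dendritic cells.

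The 27 members below 10 CPM in each main class in at least 1 library were Efna2, Efna3, Efna4, Efnb3, Epha1, Epha5, Epha6, Epha8, Epha10, Ephb1, Ephb6, Ntn3, Ntn5, Ntng1, Ntng2, Plxna3, Plxnb3, Robo2, Robo3, Sema3a, Sema4f, Sema4g, Sema5b, Sema6c, Slit1, Unc5a and Unc5d. Sema3a passed that level in library 2 alone, with 8.04 and 21.8 CPM in smooth muscle and with 22.1 CPM in Rgs5 mural barcodes of library 2. Ntng2 did so in T cells, with 9.06 and 18.55 CPM, and Robo2 in chondrocytes, with 0 and 24.96 CPM. The 0 in library 1 allows a chondrocyte level of up to 2.48 CPM (3 counts), and free RNA of library 2 held 14.3 CPM.

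Co-receptors and intracellular partners of the families were followed in a list of 46 genes, all measured, of which 38 were detected in at least 1 main class. Of these, 4 met the 2-fold rule in endothelial barcodes, 3 in macrophages, 2 in chondrocytes and 2 in T cells, and 0 in the other 3 classes. Over all genes 4.02% met it in macrophages, 1.44% in chondrocytes and 5.74% in T cells. The endothelial ones were Kdr, the VEGF receptor that pairs with Nrp1 (32.5 and 35.6 CPM), Arhgef15 (77.8 and 81.7 CPM), Chn1, a Rac-inactivating protein downstream of Epha4 (33.4 and 22.8 CPM), and Adam10, a protease that sheds ephrins (349.6 and 317 CPM). Macrophages held Cd72, a receptor of Sema4d (341 and 678 CPM), Vav3 and Fes. Chondrocytes held Srgap3 and Ngef, an exchange factor that binds EphA receptors, and T cells held Fyn and Crmp1.

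The netrin receptor Dcc was not detected in a main class, with 2 and 0 UMIs in endothelial and 1 and 4 UMIs in smooth muscle barcodes. Neo1, the other receptor of that kind, measured 158 CPM (136 to 182) and 221 CPM (207 to 235) in chondrocytes and 97.01 CPM (91.1 to 103) and 97.8 CPM (92.1 to 104) in smooth muscle. Muscle thus carried Ntn1, Unc5c and Neo1 without a measurable level of Dcc.

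The libraries were compared within each class as the ratio of library 2 over library 1, for members with a mean of 20 CPM or more. A pair of a member and a class was called past 1.5-fold in either direction. Of 124 such pairs, 43 were called, 28 higher and 15 lower in library 2. In endothelial barcodes 2 of 23 tested members were higher and 1 was lower, 13.0% in all beside 6.04% of all genes (4.85% higher, 1.2% lower). In smooth muscle 1 of 17 was higher and 1 lower, 11.8% beside 4.16% (1.12% and 3.04%). Rgs5 mural barcodes had 7 higher and 5 lower of 22, which is 54.55% beside 9.99% (4.71% and 5.28%). Fibroblasts had 2 higher and 2 lower of 20, or 20% beside 4.2% (1.71% and 2.49%). Chondrocytes had 5 higher and 5 lower of 17, or 58.8% beside 17.1% (8.96% and 8.16%). Macrophages had 3 higher and 1 lower of 13, or 30.8% beside 12% (8.72% and 3.28%). In T cells 8 of 12 were higher and 0 lower, 66.7% beside 25.3% (18.3% and 6.98%), so T cells had the largest share of called members and also the largest background. The members' share stood above that of all genes in each of the 7 classes, a difference that was not tested. In macrophages no called member had an interval wholly above free RNA in the library where it was higher. The same held for the 2 higher endothelial members, Slit3 and Epha3, while the other classes held some calls above free RNA. The calls carry no test, and what the libraries stand for cannot be told apart from any other difference between them.

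The muscle semaphorins and Unc5c were higher in library 2, past 1.5-fold in the Rgs5 mural class. There Sema3d stood at 25.1 CPM (21.6 to 29.1) and 79.1 CPM (72.01 to 86.8). Its ratio was 3.15 (2.65 to 3.76) in that class and in smooth muscle 1.77 (1.59 to 1.98). The Rgs5 mural ratio of Sema3c was 2.36 (2.05 to 2.72), that of Sema5a 1.72 (1.56 to 1.90) and that of Unc5c 1.71 (1.57 to 1.85). In smooth muscle the ratio stayed under 1.5-fold for Sema3c at 1.49 (1.35 to 1.66), Unc5c at 1.28 (1.21 to 1.36) and Sema5a at 1.11 (1.04 to 1.19). Robo1 differed in the other direction in Rgs5 mural barcodes, at 45.3 and 17.4 CPM, though both levels lay below free RNA. Unc5b, at 53.1 and 29.3 CPM, was lower in library 2 as well. In the same barcodes the summed smooth muscle markers stood at 27720 and 34320 CPM and the summed fibroblast markers at 5234 and 3664 CPM. The pericyte markers differed as well. Rgs5 stood at 3114 and 4899 CPM, Cspg4 at 186 and 239 CPM and Abcc9 at 246 and 244 CPM. Lower in library 2 were Notch3 (182.5 and 97.4 CPM), Kcnj8 (125 and 79.6 CPM), Ndufa4l2 (86.0 and 30.15 CPM), Higd1b (33.4 and 10.98 CPM) and Vtn (18.1 and 11.7 CPM). The part of all these markers in the ratios was not tested.

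The Slits differed between libraries in fibroblasts, in opposite directions. Slit3 was lower in library 2, with a ratio of 0.552 (0.524 to 0.582), and Slit2 higher, with a ratio of 1.70 (1.57 to 1.84). The Slit3 difference became smaller, at -0.64 in place of -0.86 on the log2 scale, with the marker gate at 3-fold, a setting added after seeing the data. Sema3e, the ligand of Plxnd1, was lower in fibroblasts of library 2, at 32.03 and 13.2 CPM.

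Plxna2 and Epha3 were the members called in the same direction in 3 or more classes. Plxna2 was lower in library 2, with ratios of 0.657 (0.601 to 0.717) in endothelial, 0.567 (0.490 to 0.655) in smooth muscle and 0.559 (0.471 to 0.661) in Rgs5 mural barcodes. It was not called in chondrocytes (0.692), fibroblasts (1.03) or macrophages (1.26). Its smooth muscle levels of 48.4 and 27.4 CPM lay near free RNA at 45.5 and 35.7 CPM. Epha3 was higher in library 2, with ratios of 2.32 (1.90 to 2.82) in endothelial barcodes, 4.75 (2.52 to 10.1) in chondrocytes, 2.15 (1.62 to 2.86) in macrophages and 3.29 (2.06 to 5.40) in T cells. In all of these but the T cells its level in library 2 did not exceed free RNA (46.4 and 49.97 CPM), and in T cells 21 of its 65 UMIs in library 2 came from 1 barcode. Fibroblasts, where Epha3 was highest, had a ratio of 1.20 (1.13 to 1.28), which was not called. Neither were Rgs5 mural barcodes (1.37) and smooth muscle (1.08). Over all calls, 17 of 28 higher and 9 of 15 lower pairs had an interval wholly above that of free RNA in the library where they were higher.

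Smooth muscle markers moved with the libraries in classes that should lack them. Their sum over all 9 markers was 1293 and 3641 CPM in endothelial barcodes, 811 and 2465 CPM in macrophages and 356 and 2365 CPM in T cells. Slit3 in endothelial barcodes, with a ratio of 3.14 (2.64 to 3.73), moved in the same direction and stayed below free RNA, and the part of free RNA in it was not tested. In T cells Nrp2 had a ratio of 17.1 (6.29 to 65.1), but 50 of its 52 UMIs in library 2 came from 1 barcode, without which the level was 2.74 CPM. Sema4d in T cells had a ratio of 1.52 (1.17 to 1.99) and lay above free RNA (18.1 and 12.3 CPM) in both libraries.

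**Figure D5:**
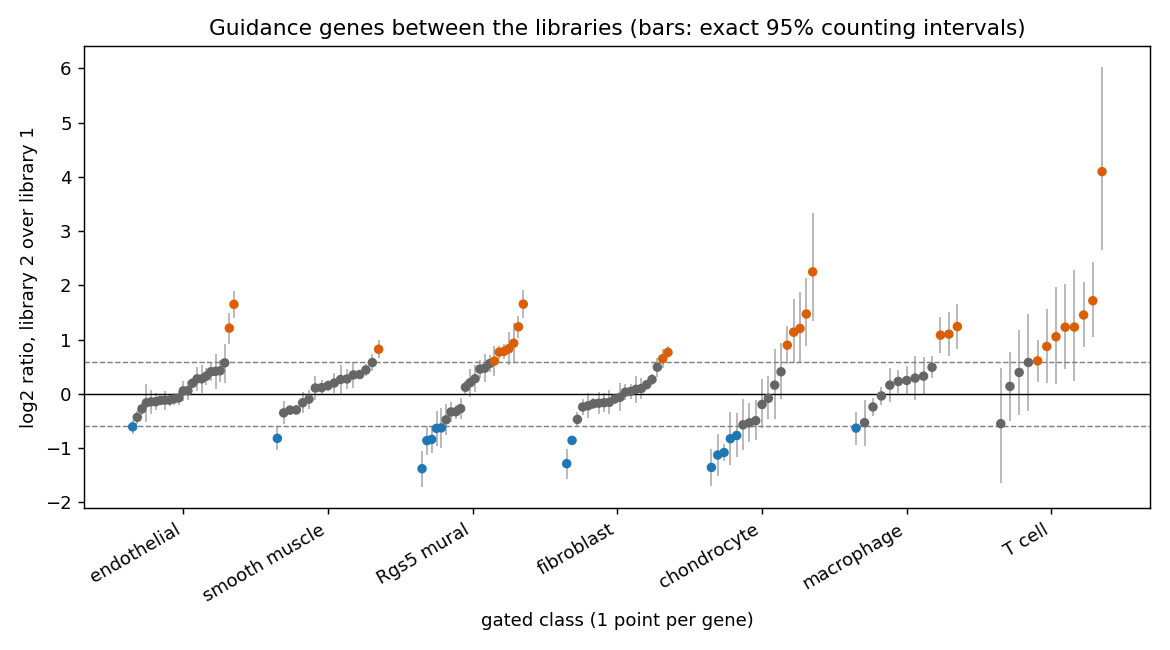
Log2 ratio of library 2 over library 1 (vertical axis) for each guidance gene tested in the 7 main classes (1 point per gene, exact 95% counting intervals), with dashed lines at 1.5-fold. Orange points are called higher and blue points lower in library 2; Rgs5 mural barcodes and chondrocytes hold many of both, and the highest T cell point is Nrp2.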

How the data were processed

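The authors deposited 1 table of raw UMI counts per gene and droplet barcode, unfiltered and not normalized. Per the file headers it comes from Cell Ranger 6.0.1. The build mm10 and the tools Seurat and bcl2fastq also stand in the submitters' processing notes. For the gene annotation, the sources used here give none. Libraries were 3' v3 droplets per the labels' protocols. Members and lists were chosen with earlier results of these data known.

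Barcodes with 3000 or more UMIs and at most 20% mitochondrial UMIs were kept. A barcode passed a gate with UMIs of at least 3 markers and a summed marker share at least 2-fold that of barcodes with 10 to 100 UMIs of the same library. The 2-fold value was set after seeing the data. There were 16 marker sets of 5 to 9 genes. Lymphatic took precedence over endothelial, and pericyte over smooth muscle. No doublet caller was run, and barcodes that passed other pairs of gates (630 and 299) were left out. UMIs were summed per class and library and divided by the summed total (CPM). Shares of barcodes were computed after thinning to 3000 UMIs with a fixed seed. Intervals are exact at 95%, and a 0 is bounded by 3 counts. Genes named are those enriched in a class, those past 1.5-fold between libraries in the same direction in 3 or more classes, and those highest in a class. The endothelial split and the small classes were described after their values were seen. The enrichment rule, the ratio calls and the ratio intervals were tried on simulated Poisson counts, which hold no spread between cells. The gates were not tried in this way. Positions are from GENCODE vM21 on GRCm38, where all 70 members matched by identifier. Python 3.11.15, numpy 2.4.6, scipy 1.17.1, pandas 2.3.3 and matplotlib 3.10.9 were used. Alternatives changed the UMI minimum, the marker number, the gate, the low filters, the scaling (TMM), the treatment of free RNA, the averaging and the deepest barcodes.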

Additional observations from a re-analysis of the deposited data

How the results depend on the processing

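The count of members enriched in a class was 16 and ranged from 13 to 22 over 10 alternatives, and the endothelial count of 15 ranged from 12 to 18. The 43 pairs of a member and a class called between libraries ranged from 41 to 49 under other UMI minimums, gates and TMM scaling. They fell to 16 with a low filter of 50 CPM and rose to 180 without a low filter, since fewer and more pairs were then tested. The 161 detected pairs became 59 when only levels above free RNA in both libraries were counted, and 166 with 4 markers or a 3-fold gate. The ratio of Efna5 between libraries in T cells turned to -0.24 on the log2 scale with the 3-fold gate; the cause was not tested. That gate and the merging of the mural classes were added after seeing the data. TMM scaling shifted ratios by 0.14 in endothelial barcodes, 0.19 in macrophages and 0.13 in T cells on the log2 scale.

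No paired analysis was possible because there is 1 library per sample and no library is tied to a sample. No replicate was left out, as each group has 1 library. Levels under 20 CPM in T cells, chondrocytes of library 1 and the small classes rest on few UMIs.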

Other observations

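Some members were higher among the low-count barcodes (10 to 100 UMIs) of library 1 than in any of its 7 main classes. Robo2, a Slit receptor, had 248 UMIs there, which is 110 CPM (96.3 to 124), while its highest main class in that library held 1.59 CPM. In library 2 it had 22 UMIs, or 14.3 CPM (8.95 to 21.6), below the 24.96 CPM of chondrocytes. Epha6 stood at 45.5 CPM (37.1 to 55.2) in low-count barcodes of library 1 and at 2.6 CPM (0.707 to 6.65) in those of library 2, and Epha5 at 44.2 CPM (35.9 to 53.7) and 3.89 CPM (1.43 to 8.48). Ntng1 stood at 21.6 CPM (16.0 to 28.6) and 5.84 CPM (2.67 to 11.1), and Unc5d at 14.6 CPM (10.0 to 20.5) and 4.54 CPM (1.83 to 9.36). All of these receptors and ligands are known from neurons, and their source was not tested.

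Single barcodes carried much of some sums. In macrophages of library 1, 1 barcode gave 92 of 130 Sema6a UMIs, and without it the level was 6.72 CPM. In chondrocytes of library 1, 1 barcode gave 28 of 78 Plxna4 UMIs and the level without it was 43.4 CPM.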
